A study of Mus musculus with 4 samples.

Results

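Chromatin accessibility was read at 5 genes of the colony-stimulating factor system, Csf1r, Csf1, Csf2rb, Csf2rb2 and Csf3r. Every deposited peak that overlapped a gene body or the 10 kb on each side of it was taken, on GRCm38 with the GENCODE M21 annotation. The 4 peak lists held 207 such peaks among 676057 in all, with 49 and 48 in the WT libraries and 62 and 48 in the IRF8KO libraries. Peaks with a −log10 q of 2 or more, called strict below, were merged over the libraries into 155546 regions, and 52 of these lay in the 5 windows: 22 at Csf1r, 8 at Csf1, 8 at Csf2rb, 5 at Csf2rb2 and 9 at Csf3r. The regions were chosen by the presence of a deposited peak, so presence and counts of peaks are given as a description with no test.

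The material was microglia, the resident macrophages of the brain parenchyma, obtained without enzymes and sorted by flow cytometry from untreated C57BL/6 mice aged 3 months. Groups were WT and IRF8KO, with 2 ATAC-seq libraries each. ATAC-seq uses the Tn5 transposase, which integrates adapters preferentially where DNA is not covered by nucleosomes, so that the local density of integrations measures accessibility. The labels give neither the allele behind IRF8KO nor a driver or cell type for the deletion, and they speak of a brain in the singular. Nothing states that the 2 libraries of a genotype came from separate mice, so the p-values measure the spread between these libraries, which may be technical.

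As background, CSF1R is the receptor tyrosine kinase on which microglia depend for survival, and its ligands are CSF1 (macrophage colony-stimulating factor) and interleukin-34. The receptors for CSF2 (granulocyte-macrophage colony-stimulating factor), interleukin-3 and interleukin-5 signal through a shared beta chain encoded by Csf2rb, and mice carry an additional beta chain specific to interleukin-3, encoded by Csf2rb2. CSF3R is the receptor of CSF3 (granulocyte colony-stimulating factor) and is best known from neutrophils. IRF8, a member of the interferon regulatory factors, controls transcription in the myeloid lineage. It binds together with PU.1 at composite ETS-IRF elements, and members of its family bind interferon-stimulated response elements (ISREs).

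Regions of Csf1 and Csf2rb whose presence differed by genotype outside exons, and a distal Csf3r region that combined an ETS-IRF match with a CEBP match, are shown as sequence so that the motif matches described below can be seen. Each line holds the 201 bases centred on the highest summit, read 5′ to 3′ on the plus strand of GRCm38 (RefSeq genome sequence), with motif matches in capitals. The Csf1 regions are chr3:107753081-107753281 in intron 4 and chr3:107769752-107769952 upstream of the gene. The Csf2rb region is chr15:78330095-78330295 in intron 2. The Csf3r region is chr4:126019050-126019250, upstream of the gene.
Csf1 intron 4, WT-specific: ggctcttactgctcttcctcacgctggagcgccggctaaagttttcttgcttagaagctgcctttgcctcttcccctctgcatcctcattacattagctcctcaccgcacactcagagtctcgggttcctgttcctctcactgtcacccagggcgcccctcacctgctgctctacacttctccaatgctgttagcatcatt
Csf1 upstream, IRF8KO-specific: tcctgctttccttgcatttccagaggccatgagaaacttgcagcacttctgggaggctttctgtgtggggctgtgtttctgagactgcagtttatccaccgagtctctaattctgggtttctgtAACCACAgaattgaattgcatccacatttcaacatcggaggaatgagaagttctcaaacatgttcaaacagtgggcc
Csf2rb intron 2, WT-specific: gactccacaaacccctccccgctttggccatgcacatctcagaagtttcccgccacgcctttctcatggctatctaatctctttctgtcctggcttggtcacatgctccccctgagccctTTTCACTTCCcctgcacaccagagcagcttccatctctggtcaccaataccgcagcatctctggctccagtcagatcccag
Csf3r upstream, peak in all 4 libraries: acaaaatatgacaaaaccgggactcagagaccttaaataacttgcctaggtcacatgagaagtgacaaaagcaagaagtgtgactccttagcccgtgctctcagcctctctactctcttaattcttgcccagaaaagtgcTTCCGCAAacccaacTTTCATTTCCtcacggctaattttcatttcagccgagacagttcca

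In the Csf2rb intron 2 sequence the capitals mark an ETS-IRF match on the minus strand. The Csf3r upstream sequence holds a CEBP match and an ETS-IRF match, both on the minus strand, and the Csf1 upstream sequence holds a RUNX match on the plus strand. No searched motif was found in the Csf1 intron 4 window, which says only that these letters are not in it.

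The motifs searched, on both strands, were GGAA and GAAA separated by any 2 bases (ETS-IRF), GAAA and GAAA separated by any 2 bases (ISRE), GAGGAAGT (PU.1), TGAGTCA (AP-1), TTGCNNAA (CEBP), AACCACA (RUNX) and TGCTGAC (MAF). An ETS-IRF match can overlap a PU.1 match, because the letters GGAA belong to both. Of the 52 summit windows in the 5 genes, 2 (3.85%) held ETS-IRF, 3 (5.77%) held ISRE, 9 (17.3%) held PU.1 and 7 (13.5%) held CEBP. Over all 155546 windows of the same length the shares were 4.30%, 3.13%, 7.74% and 9.54%. AP-1, RUNX and MAF were found in 2, 4 and 3 of the 52 windows. The shares over all windows were 5.91% for AP-1, 5.58% for RUNX and 5.02% for MAF. These are counts of letters and were not tested.

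The WT libraries were shallower, at 46948938 tags for replicate 1 and 48896408 for replicate 2, than the IRF8KO libraries, at 78793572 for replicate 1 and 66224648 for replicate 2. Tag size was 50 bp in WT and 49 bp in IRF8KO. Depth and tag size therefore followed genotype and cannot be told apart from it. Heights below are the deposited pileup per 1000000 tags (tag scaling). At the Irf8 promoter the height was 2.07 and 1.49 in WT, against 0.863 and 1.36 in IRF8KO. An accessible promoter outside a deleted part does not check the genotype labels. The microglia markers Cx3cr1, P2ry12 and Tmem119 had a strict promoter peak in all 4 libraries, whereas a strict Sall1 promoter peak was found in the 2 WT libraries alone. Over 10 microglia markers the summed height was 24.8 and 19.02 in WT and 9.62 and 16.4 in IRF8KO, and 6 of the 10 were lower in both IRF8KO libraries than in either WT library. Heights in WT were 4.30 and 2.90 at Cx3cr1, 3.73 and 2.37 at P2ry12 and 2.94 and 2.004 at Tmem119. In IRF8KO they were 1.61 and 2.63, 0.749 and 1.39, and 1.33 and 2.57 at the same genes, so that Cx3cr1 and P2ry12 lay below both WT libraries and Tmem119 overlapped. The part of these lower marker heights in the Csf1r differences below was not tested. Markers of border macrophages (6 genes) had summed heights of 1.09 and 0.757 in WT and 2.55 and 3.87 in IRF8KO, with a strict promoter peak at 2 of 6 genes in each WT library and 3 of 6 in each IRF8KO library. Mrc1, Pf4 and Ms4a7 lay above both WT values in each IRF8KO library, and Cd163 had no peak in any library. Lyve1 did not follow genotype (0.170 and 0.143 in WT, no peak and 0.151 in IRF8KO), and Cd209f had only a peak of 0.127, not strict, in IRF8KO replicate 1. The part of these cells in the differences below was not tested. Markers of monocytes summed to 0.178 to 0.491 over the libraries, of B or T cells to at most 0.405, of mast cells or eosinophils to at most 0.127, and of astrocytes to 0.532 to 1.66. Those of oligodendrocytes (2.04 and 1.47 in WT, 0.495 and 1.15 in IRF8KO), neurons (0.895 and 0.859, 0.736 and 0.453) and endothelium (2.26 and 1.98, 1.17 and 1.75) were lower in both IRF8KO libraries, and their part in the differences was not tested either. In bulk libraries fewer cells of a type and less accessibility per cell cannot be told apart.

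IRF8KO replicate 1 had the lowest heights overall: over the 58550 regions with a peak in all 4 libraries, the median log2 height was −1.17 there, −0.53 in IRF8KO replicate 2 and −0.38 and −0.70 in WT replicates 1 and 2. The median region therefore differed by a log2 of −0.31 between genotypes, and differences with tag scaling are to be read against that shift. A scaling that makes the library medians equal (median scaling) brought it to −0.002, and its log2 differences are given beside the first. Regions were tested with limma on log2 heights over all 58550 regions, with Benjamini-Hochberg adjustment and a threshold of 0.05. Leaving out a library leaves 1 library in its genotype, which is then assumed to vary like the 2 of the other, so that a call lost in this way does not by itself show a smaller difference, and the difference is given where it moved.

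Of the 52 regions, 27 had a peak in all 4 libraries (51.9%, against 37.6% of all regions) and could be tested. The others were 6 WT-specific regions, with strict peaks in both WT libraries and no deposited peak in either IRF8KO library, 2 IRF8KO-specific regions defined conversely, 12 with a peak in 1 library, and 5 with other patterns. WT-specific regions were 11.5% of the 52, against 5.58% of all regions, and IRF8KO-specific regions were 3.85%, against 3.86% of all regions. With tag scaling 1 of the 27 tested regions was lower in IRF8KO and 0 were higher, against a background of 6.82% called lower and 2.81% called higher. At an unadjusted limma p under 0.05 the counts were 4 lower and 1 higher. The number called lower was 0 without WT replicate 1 and without WT replicate 2 (1 at an unadjusted p under 0.05 in each case) and 8 without IRF8KO replicate 2. With median scaling 4 were higher and 3 lower, against a background of 13.3% higher and 12.5% lower. The median log2 difference of the 27 was −0.40 with tag scaling, against −0.31 for all regions, and −0.09 after median scaling.

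Csf1r, the receptor for CSF1 and interleukin-34 (ENSMUSG00000024621.16, chr18:61100598-61132149, plus strand), carried the tallest region of the 5 windows and the 1 region that was called with tag scaling, both in the second intron of its main transcript. That intron is known to hold a conserved enhancer of Csf1r used in macrophages. The tallest region, chr18:61108369-61109073, stood 2.99 kb past the start site of the main transcript. Its height was 7.94 and 6.16 in WT, against 5.99 and 6.61 in IRF8KO. In each library at most 0.496% of all peaks were higher. The WT and IRF8KO values overlapped, and the log2 difference was −0.15 ± 0.378 (SE, limma adjusted p 0.868) with tag scaling and 0.15 ± 0.150 (adjusted p 0.521) after median scaling. The median-scaled value passed without IRF8KO replicate 2 (0.44, adjusted p 0.0149) and was −0.0444 without IRF8KO replicate 1.

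The neighbouring region in the same intron, chr18:61107623-61108043, 2.20 kb past the start site, was lower in IRF8KO. Heights were 2.98 and 2.07 in WT and 0.470 and 0.891 in IRF8KO, so that both IRF8KO libraries lay below both WT libraries. In IRF8KO replicate 1 the deposited peak there had a −log10 q of 0.745 and was not strict, against 66.0 and 43.2 in WT and 8.51 in IRF8KO replicate 2. The log2 difference was −1.94 ± 0.460 (SE, n = 2 libraries each, limma adjusted p 8.29e-04), and −1.64 ± 0.226 after median scaling (adjusted p 1.36e-08). Without WT replicate 1 the log2 difference with tag scaling was −1.68 (adjusted p 0.703) and without WT replicate 2 it was −2.20 (adjusted p 0.250), so that the difference stayed about as large while the call was lost, whereas the median-scaled call was kept without each library in turn. No searched motif lay in its summit window.

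The other tall Csf1r regions did not pass the test with all libraries. A region 6.38 kb before the start site, chr18:61098855-61099361, measured 3.37 and 2.62 in WT, against 1.55 and 2.23 in IRF8KO. Both IRF8KO values lay below both WT values there, with a log2 difference of −0.67 ± 0.421 (limma adjusted p 0.389) and −0.37 after median scaling. With tag scaling it passed without IRF8KO replicate 2 (−0.94, adjusted p 0.0497), and without IRF8KO replicate 1 the difference was −0.41 (adjusted p 0.624). In intron 11, chr18:61120436-61120905 measured 3.45 and 1.90 in WT and 1.85 and 2.84 in IRF8KO, which overlapped (log2 difference −0.16, adjusted p 0.876, and 0.14 after median scaling). At the start-site region, chr18:61105717-61105971, heights were 1.98 and 1.15 in WT and 1.05 and 1.24 in IRF8KO, which also overlapped (log2 difference −0.40, adjusted p 0.691, and −0.09 after median scaling). A smaller region 5.61 kb before the start site, named after its values were seen, measured 0.639 and 0.757 in WT, against 0.165 and 0.498 in IRF8KO. With all libraries it was called after median scaling (log2 difference −0.97, adjusted p 0.0214) and not with tag scaling (−1.28, adjusted p 0.117). The median-scaled call was lost without WT replicate 1 (−1.28), without WT replicate 2 (−0.70) and without IRF8KO replicate 1 (−0.44). With tag scaling the region was called without IRF8KO replicate 2 (−2.08, adjusted p 2.03e-04) and measured −0.48 without IRF8KO replicate 1.

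Peaks present in both libraries of a genotype and absent from the other were found at 4 Csf1r regions. The WT-specific region in intron 6, chr18:61113278-61113495, had heights of 0.852 and 1.06, and its summit window held a PU.1 match and a CEBP match. The WT-specific region in intron 15, chr18:61126063-61126568, had heights of 0.852 and 0.614, with no motif match. The third, chr18:61092087-61092243, lay 13.4 kb before the start site with heights of 0.405 and 0.245 and a PU.1 match. The IRF8KO-specific region, chr18:61093851-61093926, lay 11.7 kb before the start site and had heights of 0.267 and 0.287, with a MAF match.

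Depth followed genotype, and its part in these classes was not tested. At their WT heights the 3 WT-specific Csf1r regions would have reached pileups of 25.6 to 75.5 in IRF8KO replicate 1 and 21.5 to 63.4 in IRF8KO replicate 2, where the lowest deposited peaks of the window had pileups of 11 and 7. At its IRF8KO height the IRF8KO-specific region would have reached 13.0 and 13.5 in the WT libraries, against lowest deposited pileups of 14 and 11 in this window and of 6 in either whole WT list. The margin above the smallest listed peaks was narrower for the IRF8KO-specific region than for the WT-specific ones. That margin is not the bar at each site, because peaks were called against a local background. At chr18:61107623-61108043 a pileup of 37 in IRF8KO replicate 1 had a −log10 q of only 0.745. The same limit holds for the pileups reckoned in this way for Csf1 and Csf2rb below.

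**Figure D1:**
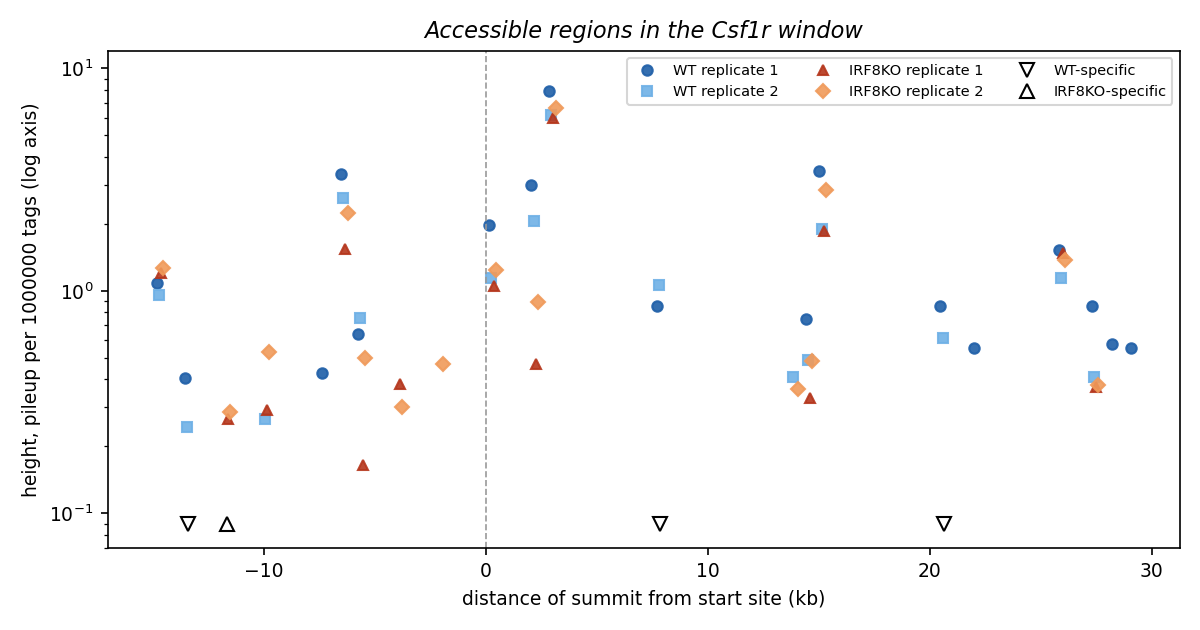
Accessible regions in the Csf1r window. The x axis gives the distance of each region's summit from the main start site in kb, with small horizontal offsets between libraries, and the log y axis gives height in each of the 4 libraries. Open triangles at the bottom mark genotype-specific regions. The tallest region, 2.99 kb past the start site, has overlapping genotypes (5.99 to 7.94), and the region at 2.20 kb has IRF8KO values of 0.470 and 0.891 below WT values of 2.98 and 2.07.

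Over the Csf1r window, the summed height was 29.8 and 20.7 in WT (25.2 ± 6.41, SD, n = 2) and 17.4 and 21.2 in IRF8KO (19.3 ± 2.69, SD, n = 2). The genotypes overlapped, with a log2 ratio of −0.38 that was −0.05 after median scaling. The window and its 22 regions include 4 regions that overlap the neighbouring gene Hmgxb3. The tallest of these, chr18:61131357-61132489, has its summit inside the annotated Csf1r gene (1.53 and 1.15 in WT, 1.48 and 1.37 in IRF8KO). Without the peaks at these 4 regions the sums with tag scaling were 26.2 and 19.1 in WT and 14.3 and 18.3 in IRF8KO (log2 ratio −0.48). These sums did not overlap, but the cut also drops the region with its summit inside Csf1r. They were not median-scaled, and the median of all tested regions was −0.31 with tag scaling. Sums over windows move with the number of peaks listed in each library and are a description with no test, since 2 against 2 libraries allow no permutation p below 0.33. Peaks covered 6213 and 5333 bp in WT and 5028 and 5039 bp in IRF8KO, with mean heights of 1.49, 1.22, 0.918 and 1.18. The window held 18 and 13 strict peaks in WT, against 11 and 14 in IRF8KO.

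By the distance between centred log2 sums over the 4 libraries, the genes whose windows were most like Csf1r among 4347 protein-coding genes with at least 10 regions were Fmnl3, Vps37b, Rab14, Xpnpep3 and Bcr. Their largest difference from the Csf1r pattern in any library was a log2 of 0.01 for Fmnl3, 0.02 for Vps37b, 0.04 for Rab14 and 0.05 for Xpnpep3 and Bcr. The 4 points per gene share library depth and overall peak height, so this likeness is a description.

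Csf1 (ENSMUSG00000014599.10, chr3:107741048-107760469, minus strand) encodes CSF1, which shares the receptor CSF1R with interleukin-34. Its start-site region was taller in both IRF8KO libraries than in either WT library, although the difference passed the test only after median scaling. The region chr3:107759849-107760710 measured 1.60 and 1.19 in WT, against 2.44 and 2.81 in IRF8KO. The log2 difference was 0.93 ± 0.433 (SE, n = 2 libraries each, limma adjusted p 0.186) with tag scaling and 1.23 ± 0.201 (adjusted p 9.23e-07) after median scaling. The median-scaled call was lost without WT replicate 1 (1.26, adjusted p 0.0545). With fold enrichment in place of pileup the log2 difference was 0.39 (adjusted p 0.408). The summed level of border macrophage markers was also higher in both IRF8KO libraries, and its part in this result was not tested.

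The Csf1 start-site region holds an ISRE match on the minus strand 35 bp from its highest summit, within the first exon of the gene. The site is shown with 10 bases on each side, chr3:107760208-107760237, plus strand, because it is the only IRF-type match in this region's window.
Csf1 ISRE site: cgaggcaaacTTTCACTTTCccctggccga

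Other Csf1 regions were low. A region in intron 3, chr3:107754731-107754964, measured 0.639 and 0.429 in WT and 0.368 and 0.664 in IRF8KO, and the genotypes overlapped (log2 difference −0.08, limma adjusted p 0.950, and 0.22 after median scaling). The WT-specific region in intron 4, chr3:107753107-107753292, had heights of 0.298 and 0.266. At those heights it would have reached pileups of 22.2 and 18.7 in the IRF8KO libraries, where the lowest deposited peaks of the window had pileups of 9 and 8. The IRF8KO-specific region, chr3:107769808-107769992, lay 9.38 kb before the start site with heights of 0.228 and 0.302. It would have reached 12.5 and 13.0 in the WT libraries, against lowest deposited pileups of 14 and 10 in this window and of 6 in either whole WT list.

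Over the Csf1 window, the summed height was 2.53 and 2.31 in WT and 4.51 and 4.61 in IRF8KO, with a log2 ratio of 0.91 that was 1.25 after median scaling. All IRF8KO values exceeded all WT values. The covered length was 1165 and 1272 bp in WT, against 2436 and 2023 bp in IRF8KO. More peaks were listed in IRF8KO (12 and 8) than in WT (3 and 5). Averaged over peaks, heights overlapped between genotypes (WT 0.845 and 0.462, IRF8KO 0.375 and 0.576). The mean sum was 2.42 for WT, of which the start-site region held 1.39, and 4.56 for IRF8KO, of which it held 2.62. The larger sum therefore went with a taller start-site peak as well as with more listed peaks. The window held 3 and 4 strict peaks in WT, against 5 and 4 in IRF8KO.

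Csf2rb (ENSMUSG00000071713.6, chr15:78325752-78353847, plus strand) encodes the beta chain shared by the receptors for CSF2, interleukin-3 and interleukin-5. Its start-site region, chr15:78325670-78326164, measured 1.58 and 0.736 in WT, against 1.66 and 2.22 in IRF8KO. The groups did not overlap, but WT replicate 1 and IRF8KO replicate 1 differed by less than the 2 libraries of either genotype did. The log2 difference was 0.83 ± 0.451 (limma adjusted p 0.288) with tag scaling and 1.14 ± 0.226 (adjusted p 4.06e-05) after median scaling, a call that was lost without WT replicate 2 (0.74, adjusted p 0.0505). With tag scaling the difference was 0.29 without WT replicate 2 and 1.38 without WT replicate 1, and with fold enrichment it was 0.52 (adjusted p 0.401). Its summit window held a PU.1 match and a CEBP match.

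The remaining Csf2rb regions included 1 WT-specific region, the intron 2 region chr15:78330087-78330358 whose sequence is printed above with its ETS-IRF match 20 bp from the summit. Its heights were 0.426 and 0.327 in WT. The same heights would have given pileups of 29.7 and 24.9 in IRF8KO, where the lowest deposited peaks of the window had pileups of 8 and 10. A region 4.79 kb before the start site, chr15:78320878-78321161, measured 1.45 and 0.982 in WT and 1.33 and 1.53 in IRF8KO, which overlapped (log2 difference 0.26, limma adjusted p 0.808, and 0.56 with adjusted p 0.0575 after median scaling). The median-scaled value passed without IRF8KO replicate 2 (0.83, adjusted p 0.00675) and was 0.39 without IRF8KO replicate 1 (adjusted p 0.321). In intron 5, chr15:78340106-78340389 measured 0.532 and 0.757 in WT and 0.419 and 0.423 in IRF8KO (log2 difference −0.59, adjusted p 0.590, and −0.29 after median scaling). A region past the end of the gene, chr15:78355608-78355859, named after its values were seen, measured 0.319 and 0.225 in WT, against 0.343 and 0.619 in IRF8KO. It passed after median scaling (log2 difference 1.09, adjusted p 0.0117), but not without WT replicate 1 (1.15), WT replicate 2 (0.98) or IRF8KO replicate 2 (1.02), and not with tag scaling (0.78, adjusted p 0.434).

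Csf2rb2 (ENSMUSG00000071714.7, chr15:78282507-78305721, minus strand), the neighbouring gene for the interleukin-3 beta chain, had low regions, none of which passed the test (1 lower and 0 higher at an unadjusted limma p under 0.05). The start-site region, chr15:78305377-78305994, measured 0.916 and 0.839 in WT, against 0.736 and 0.785 in IRF8KO. Both IRF8KO values were below both WT values, with a log2 difference of −0.21 (limma adjusted p 0.864) that became 0.10 after median scaling. A region 0.68 kb into intron 1, chr15:78304952-78305111, measured 0.256 and 0.245 in WT and 0.127 and 0.136 in IRF8KO, and was strict only in WT (log2 difference −0.93 ± 0.435, adjusted p 0.187). Median scaling left it at −0.63 (adjusted p 0.266).

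Another intron 1 region of Csf2rb2, chr15:78298717-78298911, had a peak in WT replicate 1 (0.362) and IRF8KO replicate 2 (0.272) and none in the others. It therefore did not follow genotype.

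The 2 beta-chain genes are near copies, which limits what can be assigned to each. Their start-site regions were identical at 451 of 476 aligned bases (94.7%). Of 50-base stretches taken every 10 bases, 2 of 45 in the Csf2rb start-site region and 2 of 57 in that of Csf2rb2 occurred elsewhere on chromosome 15, as did 5 of 22 in a Csf2rb intron 2 region and 5 of 15 in the Csf2rb2 region chr15:78298717-78298911. How the authors placed reads with more than 1 match is not given in the sources used here, so heights at those stretches are uncertain.

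Over the Csf2rb window, the summed height was 4.77 and 3.27 in WT and 4.84 and 5.56 in IRF8KO, with a log2 ratio of 0.37 that was 0.71 after median scaling. The sums were over 7 and 6 listed peaks in WT, against 12 and 8 in IRF8KO. Peaks covered 1661 and 1426 bp in WT and 2365 and 1781 bp in IRF8KO, with mean heights of 0.682, 0.545, 0.403 and 0.695. Over the Csf2rb2 window the sums were 2.49 and 2.45 in WT and 1.33 and 1.31 in IRF8KO, a log2 ratio of −0.90 that was −0.57 after median scaling, over 7 and 9 listed peaks in WT, against 6 and 4 in IRF8KO. Covered length there was 1025 and 1151 bp in WT and 1114 and 839 bp in IRF8KO, with mean heights of 0.356, 0.273, 0.222 and 0.328. WT held 6 and 5 strict peaks in the Csf2rb2 window and 7 and 6 in the Csf2rb window, against 1 and 2, and 6 and 5, in IRF8KO.

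Csf3r (ENSMUSG00000028859.14, chr4:126024550-126044440, plus strand) encodes the receptor for CSF3. Of its 9 regions, 8 had a peak in all 4 libraries and none was genotype-specific, and limma called none with tag scaling (1 was lower and 0 were higher at an unadjusted p under 0.05). The start-site region, chr4:126024373-126025100, measured 1.34 and 1.27 in WT and 0.977 and 1.12 in IRF8KO (log2 difference −0.32 ± 0.466, limma adjusted p 0.763, and −0.02 after median scaling). Both IRF8KO values were below both WT values before that scaling.

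Upstream of Csf3r, 1 of 2 neighbouring regions passed the test, after median scaling. The region 5.40 kb before the start site, chr4:126018877-126019405, measured 2.19 and 2.07 in WT and 1.15 and 1.71 in IRF8KO (log2 difference −0.60, limma adjusted p 0.487, and −0.30 after median scaling). The region 6.67 kb before it, chr4:126017660-126018217, named after its values were seen, measured 0.405 and 0.348 in WT, against 0.647 and 0.831 in IRF8KO. Its log2 difference was 0.97 ± 0.528 (adjusted p 0.296) with tag scaling and 1.27 ± 0.305 (adjusted p 7.01e-04) after median scaling, a call lost without WT replicate 1 (1.19, adjusted p 0.0865). The letters TTGCACAA, a CEBP match, occur 3 times in the summit window of that more distant region, while the nearer one holds the ETS-IRF and CEBP matches printed above. The difference between the 2 regions' effects was not tested.

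Within the gene, a region in intron 9, chr4:126035363-126035733, also named after its values were seen, measured 1.09 and 0.695 in WT, against 0.292 and 0.529 in IRF8KO. With all libraries it passed after median scaling (log2 difference −0.84, limma adjusted p 0.0252) and not with tag scaling (−1.15, adjusted p 0.171). The median-scaled call was lost without WT replicate 1 (−0.71) or IRF8KO replicate 1 (−0.68). With tag scaling the region was called without IRF8KO replicate 2 (−1.57, adjusted p 0.00424), and without IRF8KO replicate 1 the difference was −0.72 (adjusted p 0.365). The tallest region of the window, chr4:126046771-126047269 (3.22 and 2.62 in WT, 1.40 and 2.69 in IRF8KO), lies at the neighbouring gene Mrps15 and not at Csf3r. Its genotypes overlapped (log2 difference −0.58, adjusted p 0.480, and −0.28 after median scaling), and with tag scaling it passed without IRF8KO replicate 2 (−1.06, adjusted p 0.0259) and was −0.11 without IRF8KO replicate 1 (adjusted p 0.935). Neutrophil markers (10 genes) summed to 0.937 and 0.818 in WT and 1.46 and 1.90 in IRF8KO, with Ltf, S100a9 and Ly6g without a peak in any library. Mmp8 alone (0.192 and 0.205 in WT, 0.749 and 1.21 in IRF8KO) carried that difference. The other 9 summed to 0.745 and 0.614 in WT, against 0.711 and 0.695 in IRF8KO, and their part in the Csf3r values was not tested.

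Over the Csf3r window, the summed height was 13.7 and 10.4 in WT and 6.60 and 10.2 in IRF8KO, with a log2 ratio of −0.52 that was −0.24 after median scaling. This window includes 3 regions at Mrps15. Without the peaks there the sums with tag scaling were 8.20 and 6.65 in WT and 4.44 and 6.04 in IRF8KO (log2 ratio −0.50, not median-scaled). The covered length was 3102 and 2861 bp in WT and 3687 and 3555 bp in IRF8KO, with mean heights of 1.14, 0.948, 0.508 and 1.02. IRF8KO replicate 1 was the lowest of the 4, and WT replicate 2 and IRF8KO replicate 2 differed by less than the libraries of either genotype did.

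**Figure D2:**
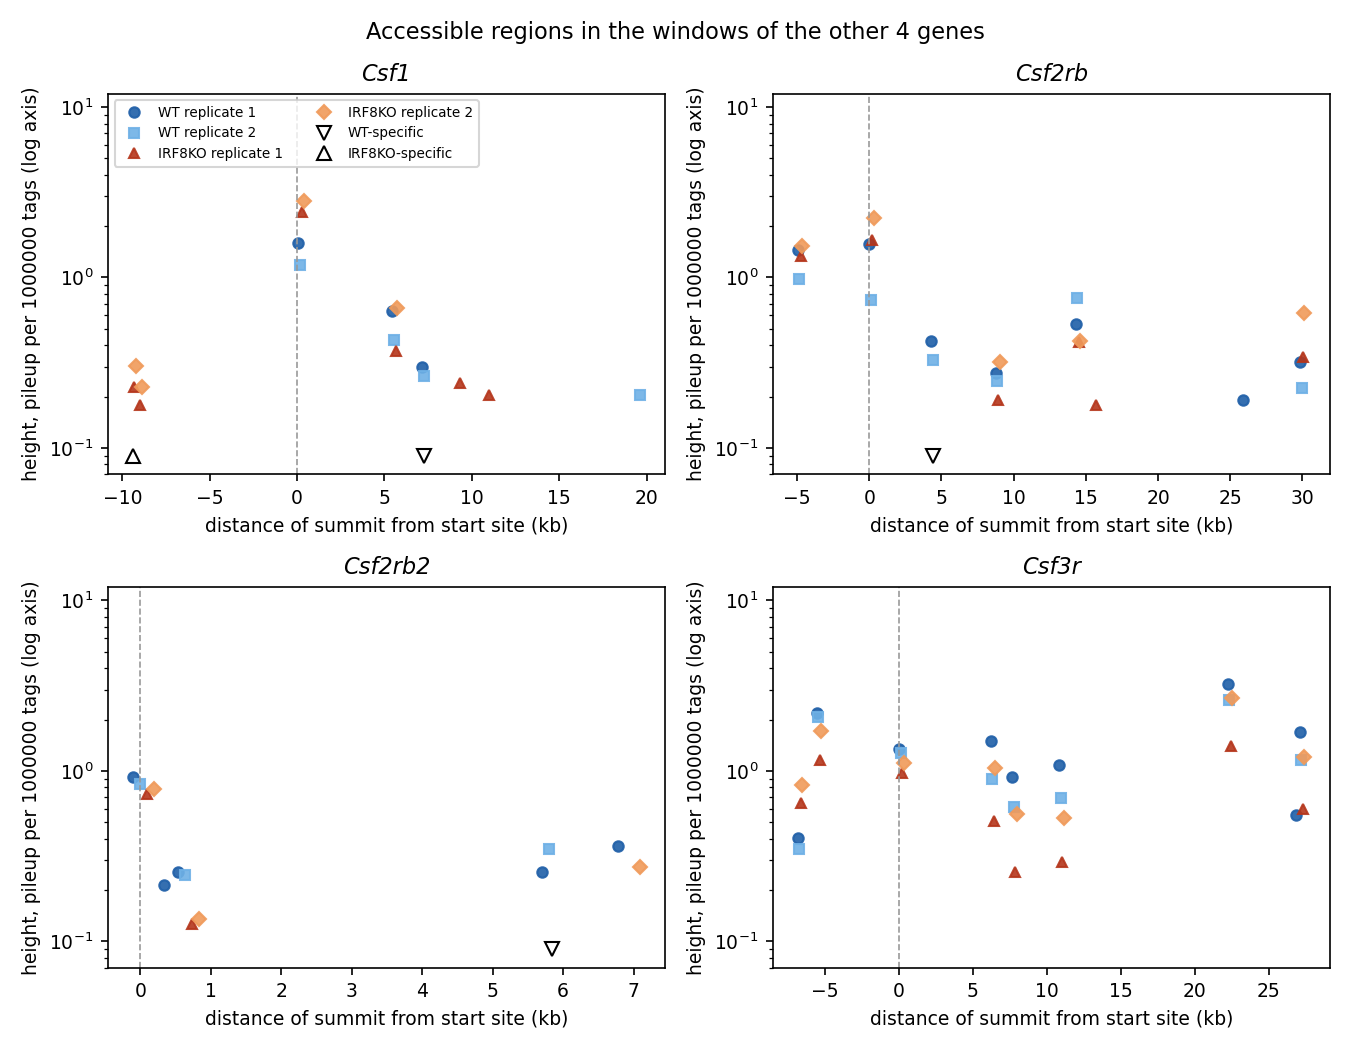
Accessible regions in the windows of Csf1, Csf2rb, Csf2rb2 and Csf3r. The x axes give the distance of each summit from the gene's start site in kb, with small horizontal offsets between libraries, and the log y axes give height in the 4 libraries. Open triangles mark genotype-specific regions. At the Csf1 start site IRF8KO values of 2.44 and 2.81 lie above WT values of 1.60 and 1.19, and at Csf2rb2 all heights are below 1.

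Per kb of window, the order of the genes was led by Csf1r, whose window includes the Hmgxb3 regions, with 0.577 and 0.401 summed height in WT, against 0.338 and 0.412 in IRF8KO. Csf3r, whose window includes the Mrps15 regions, followed with 0.343 and 0.261 in WT and 0.165 and 0.255 in IRF8KO, and its highest library exceeded the lowest of Csf1r, so that these neighbours overlapped. Csf1 (0.0643 and 0.0586 in WT, 0.114 and 0.117 in IRF8KO) and Csf2rb (0.0992 and 0.0680 in WT, 0.101 and 0.116 in IRF8KO) overlapped each other and lay below Csf3r in every library. Csf2rb2 was lowest, with 0.0577 and 0.0568 in WT, against 0.0308 and 0.0304 in IRF8KO.

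**Figure D3:**
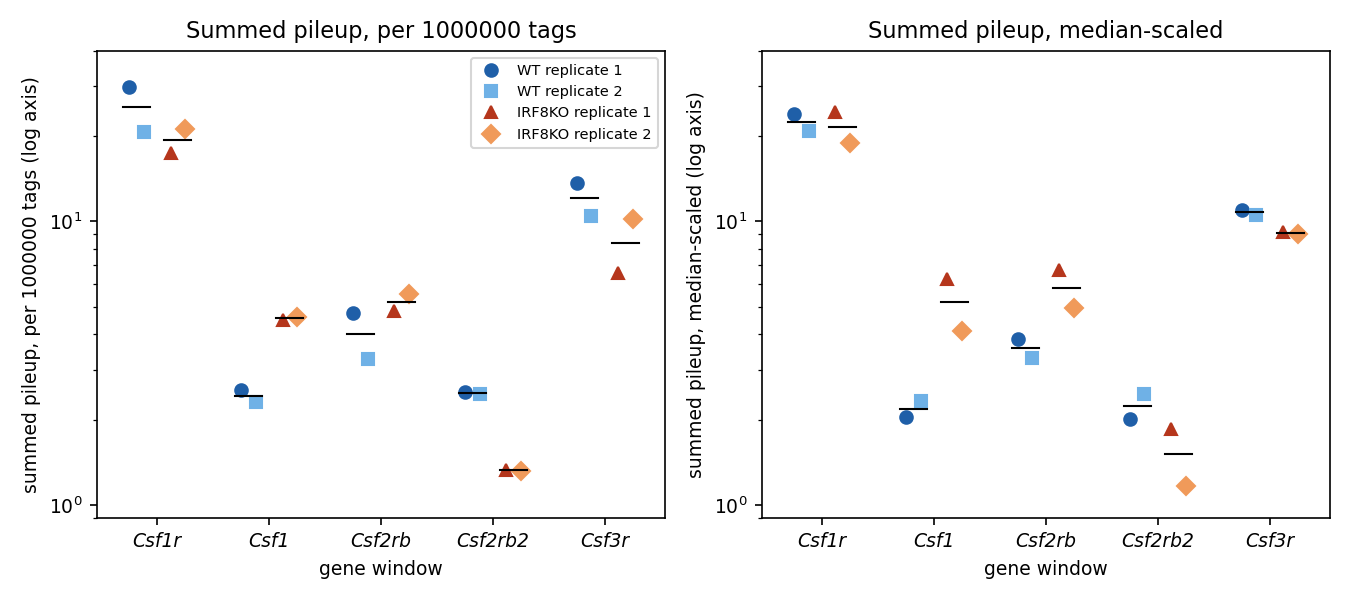
Summed pileup in the 5 gene windows, on a log y axis, with tag scaling (left) and after median scaling (right). Points are the 4 libraries and black lines the mean of each genotype (n = 2). For Csf1 both IRF8KO libraries (4.51 and 4.61) lie above WT (2.53 and 2.31), and for Csf2rb2 they lie below (1.33 and 1.31 against 2.49 and 2.45).

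The groups did not overlap at 17 of the 27 tested regions, with IRF8KO higher at 5 and WT higher at 12 with tag scaling. Over all tested regions the shares were 11.9% and 37.1%. After median scaling the counts were 7 and 10, against 29.5% and 29% of all tested regions. The Csf1r region at 2.20 kb had the most negative difference of the 27 under both.

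**Figure D4:**
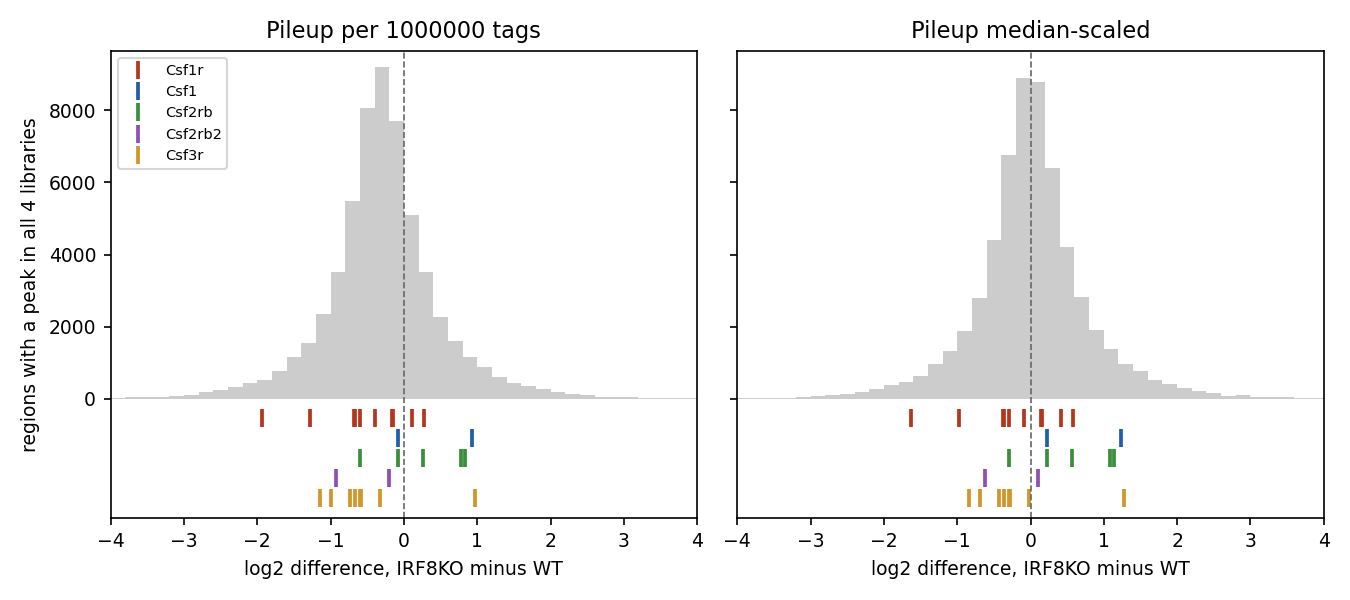
Log2 difference in height, IRF8KO minus WT, with tag scaling (left) and after median scaling (right). The grey histogram counts the 58550 regions with a peak in all 4 libraries, and coloured ticks mark the 27 regions in the 5 gene windows. The histogram centre moves from −0.31 to −0.002 with the scaling, and the Csf1r tick at −1.94 (−1.64 after scaling) is the most negative one.

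At Csf1 the outermost region inside, the IRF8KO-specific one, lay 9.34 kb from the gene, and the nearest region outside lay 10.26 kb away with a height of 0.192 in WT replicate 1 alone. At Csf1r the outermost upstream region inside lay 9.17 kb from the gene with heights of 1.09, 0.961, 1.21 and 1.27, and the nearest one outside lay 13.38 kb away with 0.347 in IRF8KO replicate 2 alone. On the other sides the nearest outside regions lay 12.22 to 36.73 kb from the gene with heights from 0.140 to 0.589, except between the adjacent Csf2rb and Csf2rb2. There the nearest region outside each window belongs to the window of the other gene, 19.76 kb from Csf2rb and 15.16 kb from Csf2rb2.

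The wider pathway was read from a list of 35 genes: ligands, receptor subunits, adaptors, kinases, STAT proteins, inhibitors and regulators connected to these receptors. Their windows held 477 regions. WT-specific regions numbered 19 (3.98%, at 12 genes, against 5.58% of all regions) and IRF8KO-specific regions 21 (4.40%, at 14 genes, against 3.86%). Of 242 regions with a peak in all 4 libraries, 8 were called higher in IRF8KO (3.31%, background 2.81%) and 14 lower (5.79%, background 6.82%). After median scaling the counts were 40 higher and 33 lower, which is 16.5% and 13.6% against backgrounds of 13.3% and 12.5%. The shares of limma calls were near the background. Without WT replicate 1 the limma calls with tag scaling numbered 1 higher and 0 lower (4 and 5 at an unadjusted p under 0.05), and without WT replicate 2 they numbered 0 of each (6 higher and 15 lower at an unadjusted p under 0.05), with the residual spread taken from the IRF8KO pair. Without each of the WT libraries in turn all 22 called regions kept their sign, with log2 differences of 0.670 to 1.33 times the value from all libraries. The Pdgfrb region alone stayed called without WT replicate 1. All 22 stayed called after median scaling, and 11 did with fold enrichment in place of pileup.

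Among the ligands, the called regions lay near Csf2 and Csf3, which encode granulocyte-macrophage and granulocyte colony-stimulating factor. A region 12.4 kb past the Csf2 start site, chr11:54236718-54237384, rose from 0.149 and 0.123 in WT to 0.482 and 0.649 in IRF8KO (log2 difference 2.05 ± 0.498, limma adjusted p 0.00119, and 2.35 after median scaling). Its WT pileups were 7 and 6, where the lowest in either WT list was 6, so the size of this difference is uncertain. A region 7.54 kb past the Csf3 start site, chr11:98708513-98708890, which overlaps Med24, rose from 0.469 and 0.266 to 1.40 and 1.69 (log2 difference 2.12 ± 0.505, adjusted p 8.88e-04, and 2.43 after median scaling). With fold enrichment the Csf3 call was lost (1.41, adjusted p 0.0519). Neither gene had a strict promoter peak in WT, and Csf3 had one in IRF8KO replicate 2 only (0.347). Il34, the other CSF1R ligand, had 3 regions, none with a peak in all 4 libraries and none genotype-specific.

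Of the partner receptors, Csf2ra, the alpha chain of the CSF2 receptor, had a tall region with its summit 1.11 kb past the main start site. This region, chr19:61226428-61227884, had heights of 6.88 and 5.75 in WT, against 6.49 and 8.05 in IRF8KO. The genotypes overlapped and the log2 difference was 0.20 (limma adjusted p 0.819), or 0.50 after median scaling (adjusted p 0.00550). The region at the main start site, chr19:61228222-61228810, measured 0.980 and 0.777 in WT and 1.17 and 1.46 in IRF8KO, which did not overlap. Its log2 difference was 0.58 (adjusted p 0.545), or 0.89 after median scaling (adjusted p 0.00266). Upstream of Csf1r lies Pdgfrb, which encodes a related receptor tyrosine kinase. Its intron 15 region chr18:61074546-61075030 lies outside the Csf1r window and measured 0.362 and 0.184 in WT and 1.87 and 2.52 in IRF8KO, a rise of 3.07 ± 0.504 on the log2 scale (adjusted p 2.05e-07) and of 3.37 after median scaling. With fold enrichment the rise was 2.02 (adjusted p 0.0106). The Pdgfrb window also contains the 2 outermost genotype-specific regions counted under Csf1r.

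Downstream of the receptors, called regions rose near Jak2, the kinase bound to the beta chain, and near Socs3, a feedback inhibitor of cytokine signalling. The Jak2 region, 10.1 kb before the start site, measured 0.341 and 0.184 in WT and 0.749 and 1.57 in IRF8KO (log2 difference 2.11, limma adjusted p 0.00173, and 2.42 after median scaling). The Socs3 region, 10.5 kb before the start site, measured 0.149 and 0.205 in WT and 0.533 and 0.740 in IRF8KO (log2 difference 1.85, adjusted p 0.00697, and 2.15 after median scaling). The WT pileups were low at Socs3 (7 and 10) and in WT replicate 2 at Jak2 and Pdgfrb (9 each), so these sizes are uncertain too. Called regions fell in introns of Cbl, a ubiquitin ligase that promotes degradation of activated CSF1R, of Pik3cd, a catalytic subunit of phosphoinositide 3-kinase, and of the adaptor gene Grb2. Of 3 calls in the Grb2 window, 2 lay in intron 3 and 1 past the end of the gene, and none held with fold enrichment (adjusted p 0.0543 to 0.0905).

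The largest fall at Cbl was that of chr9:44213478-44214015 in intron 1, with 3.02 and 2.27 in WT and 0.609 and 0.710 in IRF8KO (log2 difference −1.99, limma adjusted p 4.90e-04, and −1.69 after median scaling). With fold enrichment it was −1.21 (adjusted p 0.00558). In intron 3 of Pik3cd, chr4:149662147-149662652 measured 2.36 and 1.55 in WT and 0.533 and 0.483 in IRF8KO (log2 difference −1.92, adjusted p 0.00178, and −1.61 after median scaling). An intron 6 region of Runx1, a transcription factor of blood cell and microglial development, measured 1.001 and 0.859 in WT and 0.165 and 0.196 in IRF8KO (log2 difference −2.37, adjusted p 3.33e-04, and −2.06 after median scaling). The Runx1 window was mixed: of 17 tested regions 3 were called lower and 0 higher, and after median scaling 4 lower and 7 higher. In intron 1 of Inpp5d, an inositol phosphatase that limits this signalling, heights were 1.06 and 1.02 in WT and 0.292 and 0.317 in IRF8KO (log2 difference −1.78, adjusted p 0.0116, and −1.47 after median scaling). With fold enrichment the calls at this Pik3cd region (−1.14, adjusted p 0.0509) and at Inpp5d (−1.12, adjusted p 0.0892) were lost. In each of these 4 regions both IRF8KO libraries lay below both WT libraries.

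**Figure D5:**
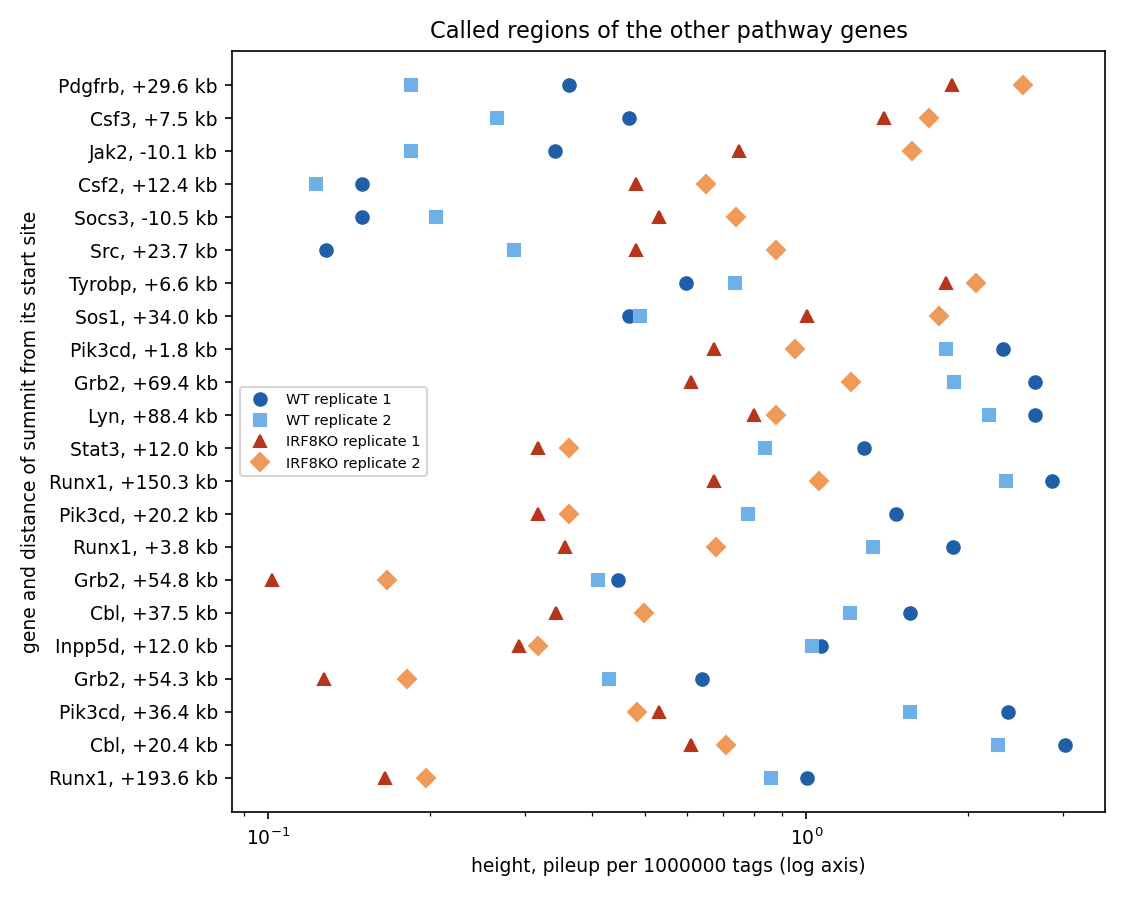
The 22 called regions of the other pathway genes, ordered by log2 difference. The log x axis gives height in the 4 libraries, and the y axis names the gene and the distance of the summit from its start site. The 8 upper regions have both IRF8KO values above both WT values, with the Pdgfrb region at the top (1.87 and 2.52 against 0.362 and 0.184), and the 14 lower regions have both below.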

How the data were processed

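ATAC-seq peak lists of 4 libraries, 2 WT and 2 IRF8KO, were used, grouped by the labels. The authors ran MACS2 2.1.1.20160309 on each library separately, per the file headers, using no control and a p cutoff of 0.01, with cut sites moved by 37 bp and extended to 73 bp and a local background over 10000 bp. The submitters' processing notes also name bcl2fastq, Bowtie2, deepTools and the mm10 (GRCm38) build. Pileup as deposited is a signal: how many extended cut sites cover the summit. The deposited fold enrichment is a ratio to local background, and the deposited p and q are −log10 values. All these scores are the authors' own.

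Pileup was divided by the header's tag number and multiplied by 1000000 (tag scaling). Strict peaks (−log10 q of 2 or more) were merged with an overlap of at least 1 bp, and heights of the 58550 regions with a peak in all 4 libraries were compared with limma 3.58.1 (R 4.3.3) on log2 values, all 4 libraries, no block, Benjamini-Hochberg adjustment over all regions, after a check on simulated data. Window sums are described without the exact permutation test first planned for them, which could not reach the threshold with 2 against 2 libraries. Setting pileup across lists assumes that it scales with tag number. The genes, lists and alternatives were chosen with earlier results of these data known, and median scaling without single libraries and with the replicate block, and the sums without neighbouring genes, were added after seeing the data. Named by rule were regions at start sites, genotype-specific regions, limma calls, the 3 tallest regions of each window, the 5 genes nearest to Csf1r, Csf2, Csf3, Il34, Csf2ra and up to 10 further pathway genes with the largest difference. Promoter peaks lay within 1 kb of a start site. Replicate numbers did not pair the libraries (correlation of deviations 0.0044). Sequences come from the RefSeq GRCm38 genome. Base composition and protein sequences were not used here, and 1 genotype-specific region and 1 marker gene are not reported here.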

Additional observations from a re-analysis of the deposited data

How the results depend on the processing

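With 2 libraries a genotype, and depth and tag size following genotype, most limma calls with tag scaling are lost when a WT library is left out, where 1 WT library is assumed to vary like the IRF8KO pair, and low heights near the smallest listed peak cannot be compared between depths. Changing the scaling, taking fold enrichment in place of pileup or leaving out a library gave 23 reversed signs among single regions, with their ranges below, and none was a call.

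Over all regions the limma calls, 1643 higher and 3994 lower in IRF8KO, became 7816 and 7298 with median scaling, and 2088 were lower with fold enrichment in place of pileup. Leaving out a library gave 138 to 3797 higher and 141 to 12993 lower, and with median scaling 2808 to 8046 higher and 1819 to 7917 lower, both lowest without WT replicate 1. In the 5 windows, 0 higher and 1 lower became 4 and 3 with median scaling; leaving out a library gave 0 to 8 lower, and with median scaling 1 to 7 higher and 1 to 3 lower. In the pathway windows, 8 higher and 14 lower became 40 and 33 with median scaling, 6 were lower with fold enrichment, and 5 were higher with peaks near the summit only. Leaving out a library gave 0 to 18 higher and 0 to 53 lower, and with median scaling 11 to 48 higher and 4 to 34 lower.

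With the replicate block, which the numbers do not justify by pairing, the calls were 330 higher and 872 lower over all regions, 0 lower in the 5 windows (1 at an unadjusted p under 0.05), and 2 higher and 1 lower in the pathway windows. The Csf1r region at 2.20 kb had an adjusted p of 0.170 under the block. The block with median scaling moved no count past 1.5 times.

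The 6 WT-specific regions became 3 at a −log10 q of 5 and 0 at a fold enrichment of 5 or more, and 6 to 13 without single libraries. The 2 IRF8KO-specific regions became 0 under both and 2 to 6 without single libraries. The mean difference in strict peaks, IRF8KO minus WT, was 1 for Csf1, −1 for Csf2rb and −4 for Csf2rb2. It became −0.5 for Csf1 and −1 for Csf2rb2 at a −log10 q of 5. With all deposited peaks it was 6, 3.5 and −3 for the same genes in that order.

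With median scaling the log2 difference was 0.15 for the tallest Csf1r region, 0.14 for Csf1r intron 11, 0.22 for Csf1 intron 3 and 0.10 for the Csf2rb2 start, and with fold enrichment 0.19, 0.16 and 0.14 for the first, second and last of these. Without single libraries, values with tag scaling ran from −0.34 to 0.0321 (tallest Csf1r region), −0.59 to 0.27 (Csf1r intron 11), −0.51 to 0.34 (Csf1 intron 3) and −0.0229 to 0.54 (Csf2rb, 4.79 kb before the start). Median-scaled values ran from −0.34 to 0.15 (Csf1r start), −0.0444 to 0.44 (tallest Csf1r region), −0.14 to 0.39 (Csf1r intron 11), −0.73 to 0.11 (Csf2rb intron 5), −0.12 to 0.42 (Csf2rb2 start) and −0.19 to 0.25 (Csf3r start). The cause of these changes was not tested.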
